A study of Mus musculus with 6 samples.

Results

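The heat shock chaperone genes examined in mouse aorta were 10 of the 55487 genes in the deposited table and were taken by symbol: Hspa1a, Hspa1b, Hspa8, Dnaja1, Dnajb1, Hsp90aa1, Hsp90ab1, Hspb1, Hsph1 and Hspd1. Each symbol had 1 gene identifier, and all 10 had enough counts to be tested. The proteins of 9 of them work mainly in the cytosol and nucleus; Hspd1 encodes the mitochondrial chaperonin HSP60, so the word cytosolic does not hold for it. Whole aorta was sequenced from knockout mice lacking Ogt specifically in smooth muscle cells (3 libraries) and from control mice with floxed Ogt (3 libraries; genotype label LoxP). The titles of both groups carry SM22, the name of a smooth muscle protein encoded by Tagln, but the labels do not state the driver of deletion, its timing, whether controls carry a Cre, or the strain, sex and age of the mice. Nor do the labels say that each library came from its own animal, so p-values measure the spread between these libraries, which may be partly technical. Ogt encodes the enzyme that attaches O-linked N-acetylglucosamine to nuclear and cytosolic proteins.

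Chaperones of this group hold unfolded proteins and help them fold. J-domain proteins such as the products of Dnaja1 and Dnajb1 bring clients to HSP70 and start its ATP cycle, HSP110 (Hsph1) helps HSP70 exchange its nucleotide, HSP90 matures signalling proteins together with cochaperones, and the small heat shock protein HSP25 (Hspb1; HSP27 in humans) holds unfolded proteins and is abundant in smooth muscle. Under heat or other protein stress the factor HSF1 binds repeated units of the letters nGAAn in alternating orientation near the start of many of these genes. Hspa1a, Hspa1b and Hsp90aa1 are known as strongly inducible, while Hspa8 and Hsp90ab1 are expressed in most cells without stress.

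The promoter sequences were searched for such units, and the stretches holding them are shown for the gene that changed with Ogt loss and for the inducible and small chaperones. Windows of 300 bases, 250 of them upstream of a RefSeq start (build GRCm38.p6), were available for 7 of the 10 genes; none was available for Hspa8, Hsp90aa1 or Hsp90ab1. Capitals mark units joined as GAANNTTC or TTCNNGAA, searched on both strands with overlaps counted, and each sequence reads 5′ to 3′ on the strand of its gene.
Dnaja1, chr4:40722333-40722362, plus strand: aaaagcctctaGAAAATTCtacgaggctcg
Hspa1a, chr17:34972157-34972406, minus strand: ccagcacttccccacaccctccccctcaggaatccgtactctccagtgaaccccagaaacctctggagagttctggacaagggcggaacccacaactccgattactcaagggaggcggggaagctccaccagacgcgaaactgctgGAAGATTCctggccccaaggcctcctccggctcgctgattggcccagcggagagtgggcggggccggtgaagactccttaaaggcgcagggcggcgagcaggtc
Hspa1b, chr17:34959239-34959488, minus strand: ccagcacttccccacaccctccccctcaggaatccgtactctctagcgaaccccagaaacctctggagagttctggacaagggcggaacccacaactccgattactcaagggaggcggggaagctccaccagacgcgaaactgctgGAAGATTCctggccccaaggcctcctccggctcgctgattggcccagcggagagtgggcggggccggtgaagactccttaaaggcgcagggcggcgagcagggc
Hspb1, chr5:135887779-135887868, plus strand: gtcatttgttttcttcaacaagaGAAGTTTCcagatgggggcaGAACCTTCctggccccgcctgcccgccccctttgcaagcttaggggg
Hspe1, the gene that shares this promoter with Hspd1, chr1:55088053-55088082, plus strand: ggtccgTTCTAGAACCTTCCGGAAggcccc

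At least 1 such joined pair lay in a window of 6 of the 7 genes, Dnajb1 being the exception, and in a window of 4587 of all 27025 gene symbols (17%). Longer runs of 3 units were GAANNTTC followed by NNGAA or TTCNNGAA followed by NNTTC. They lay in windows of 2 of the 7, Hspd1 and Hsph1, and of 179 of all symbols (0.662%). In Hsph1 the run began after the start, at base 37 or 16 depending on the window. Hspd1 held such runs upstream in 1 window, from -144, while another of its windows held no joined pair. The Hspe1 stretch shown above lies in an annotated Hspd1 exon. In Dnaja1 the pair began at position -124 from the start in 1 of its 3 windows, inside an annotated exon of another Dnaja1 transcript. The Dnaja1 stretch shown above also overlaps an annotated exon of the predicted gene Gm6297. The Hspa1a and Hspa1b promoters both held a joined pair at -104. Over those 250 upstream bases the promoters of Hspa1a and Hspa1b differed at 3 positions, written with the Hspa1a base first and counted from 1 at the 5′ end, C44T, T47C and T249G. These matches describe letters only and do not show binding.

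The 6 libraries held 11845644, 17223643 and 18218385 counts in the knockout group and 13738958, 3038782 and 12929900 in the control group. Control replicate 2 was the shallowest and stood apart in make-up, with 10.2% of its counts from mitochondrial ribosomal RNA against 0.491% to 0.823% in the other 5 libraries. Ogt itself, on the X chromosome, averaged 79.2 ± 12.3 CPM (counts per 1000000 counts, scaled by TMM, the trimmed mean of M values) in knockout aorta and 170.2 ± 17.7 CPM in control aorta (SD, n = 3 each), a log2 fold change of -1.102 ± 0.15 (SE) (edgeR, adjusted p 0.0214). Summed smooth muscle markers (7 genes, none at 0) took 23400, 23540 and 28260 unscaled CPM (relative to the library total, without TMM) in knockout aorta and 36720, 25280 and 31680 in control aorta. These unscaled sums overlapped between the groups only through control replicate 2, while control replicates 1 and 3 stood above all knockout libraries. The TMM factor of control replicate 2 was 0.8914, against 0.9891 to 1.066 in the other 5 libraries. Scaling by TMM therefore raises its values relative to theirs, so the unscaled overlap does not show that the groups are alike. Of the 7 log2 fold changes 6 were negative, with 1 called by edgeR, Tagln (-1.14, adjusted p 0.0331). Those of Acta2 and Cnn1 were -0.04 and -0.02. In bulk tissue, fewer cells of a type and less RNA per cell cannot be told apart.

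Of the 10 chaperone genes 1, Dnaja1, rose in knockout aorta and 0 fell (edgeR quasi-likelihood test, Benjamini-Hochberg adjusted p under 0.05 over 16139 genes). The same test called 3.45% of all genes tested, 1.9% higher and 1.56% lower in knockout. None of the other 9 had an unadjusted p under 0.05, a level that 22.7% of all genes tested reached; DESeq2 and limma voom also called 1 of the 10, Dnaja1, and 0 lower, where they called 10.3% and 4.73% of all genes. Of the log2 fold changes 6 were positive and 4 negative, and their median was 0.07 against -0.01 over all genes tested. The ranges of the 3 knockout and 3 control libraries were apart for 1 of the 10 genes, whereas 31.8% of all genes tested had separate ranges.

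**Figure D1:**
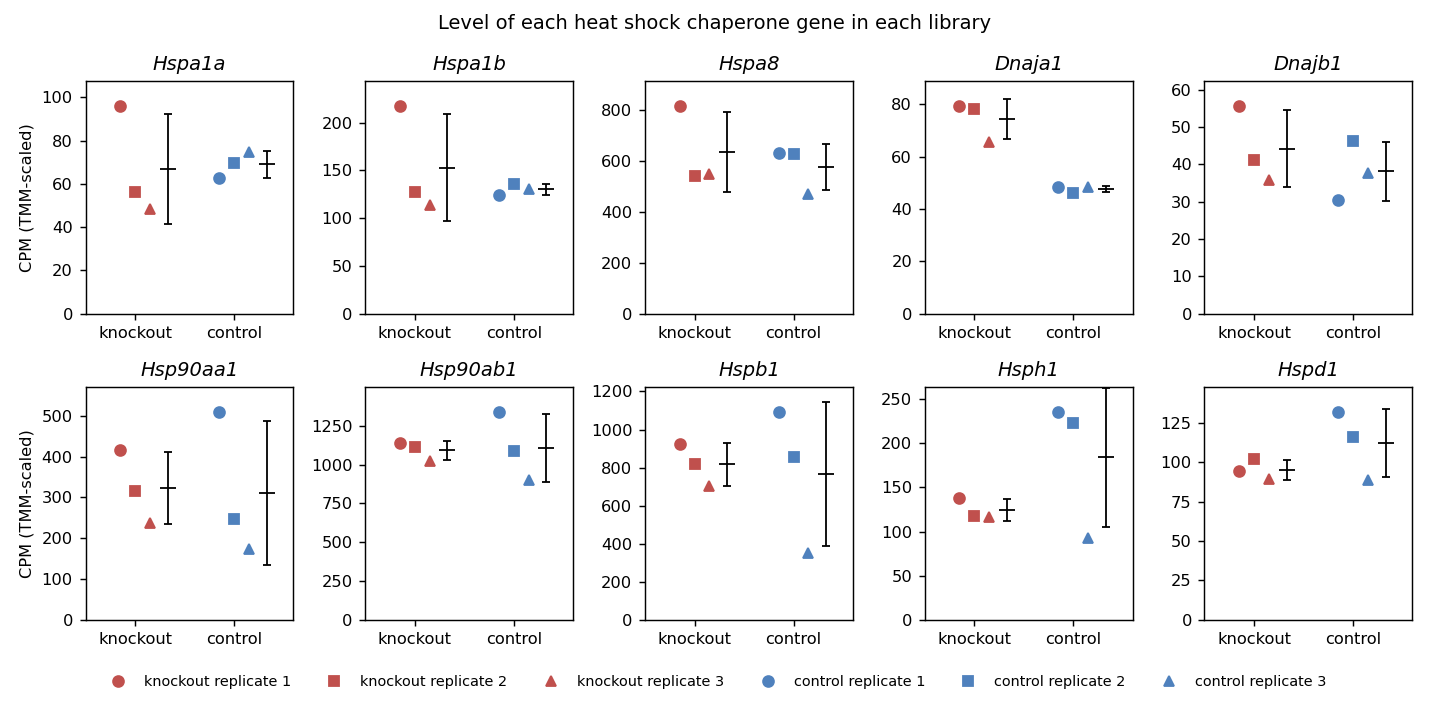
TMM-scaled CPM of each of the 10 chaperone genes in 3 knockout libraries (left, red) and 3 control libraries (right, blue), with the mean and SD of each group in black; each y axis starts at 0. The knockout values of Dnaja1 (65.5 to 79.4 CPM) lie above its control values (46.3 to 48.5 CPM), and the values of the other 9 genes overlap between groups.

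Dnaja1, a J-domain cochaperone of HSP70 (ENSMUSG00000028410, chromosome 4, 40722150 to 40737149, plus strand, GRCm38), had 79.4, 78.2 and 65.5 CPM in knockout aorta, against 48.5, 46.3 and 48.3 CPM in control aorta. All knockout libraries stood above all control libraries. The means were 74.3 ± 7.69 and 47.7 ± 1.19 CPM (SD, n = 3 each), a log2 fold change of 0.64 ± 0.12 (SE), or 1.56-fold (95% interval 1.28 to 1.88), with an adjusted p of 0.0398. The counts behind these values were 933, 1329 and 1201 in knockout and 706, 125 and 664 in control libraries. Without control replicate 2 the log2 fold change was 0.62 and the adjusted p 0.037. Leaving out any of the other 5 libraries kept the log2 fold change between 0.60 and 0.73 but ended the call: the adjusted p was 0.186 without knockout replicate 1, 0.171 without knockout replicate 2, 0.0694 without knockout replicate 3, 0.129 without control replicate 1 and 0.0713 without control replicate 3. Those fits called between 7 and 280 genes in all. Of the 75-base windows of the longest coding Dnaja1 transcript, 26.2% also occur, on either strand, in transcripts of other genes. The predicted gene Gm15542 holds 14.3%. How far this affects the counts is not known. The 3′ end of Dnaja1 overlaps exons of Smu1, a splicing factor gene on the opposite strand that holds 9.6% of these windows. The strand setting of the counting is not given. Smu1 had 44.0, 47.2 and 49.1 CPM in knockout and 55.5, 40.8 and 46.6 CPM in control libraries, a log2 fold change of -0.04 with an adjusted p of 0.905.

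Dnajb1 encodes HSP40, the J-domain partner of inducible HSP70 (ENSMUSG00000005483, chromosome 8, 83608193 to 83612653, plus strand). It had 55.6, 41.2 and 35.8 CPM in knockout aorta, against 30.5, 46.3 and 37.6 CPM in control aorta. The groups overlapped, and the log2 fold change of 0.23 had a 95% interval of -0.27 to 0.72 and an adjusted p of 0.562. The log2 ratio of Dnaja1 to Dnajb1 counts within a library, which does not depend on how libraries are scaled, averaged 0.77 ± 0.22 in knockout and 0.34 ± 0.34 in control libraries (SD, n = 3 each), and the ranges overlapped. Its difference of 0.43 gave an exact two-sided permutation p of 0.2, where 3 libraries against 3 cannot go below 0.1. With each library left out the difference was 0.26 to 0.59.

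Hspa1a and Hspa1b, the inducible HSP70 genes, are single-exon neighbours on chromosome 17 (ENSMUSG00000091971 at 34969190 to 34972156 and ENSMUSG00000090877 at 34956436 to 34959238, both minus strand). Their coding sequences are 99.4% identical over an alignment with 8 mismatched and 3 gap bases, and of the 75-base windows of Hspa1a, 52.7% also occur in Hspa1b, so how the counting divided reads between them is uncertain. Hspa1a had 96.0, 56.4 and 48.3 CPM in knockout aorta, against 62.6, 69.7 and 74.7 CPM in control aorta. Hspa1b had 217.5, 127.2 and 114.2 CPM in knockout aorta, against 124.0, 135.7 and 130.9 CPM in control aorta. For both genes knockout replicate 1 was the highest of the 6 libraries, and the control libraries lay inside the knockout range. The coefficient of variation of Hspa1b was 36.8% over knockout and 4.52% over control libraries. The log2 fold changes were -0.05 (95% interval -0.63 to 0.54) and 0.23 (-0.32 to 0.79), with adjusted p of 0.938 and 0.604. With the counts of both genes summed, the log2 fold change was 0.14 and the adjusted p 0.767.

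Hspa8, which encodes the constitutive HSC70 (ENSMUSG00000015656, chromosome 9, 40800984 to 40810087, plus strand), had 816.8, 541.5 and 549.9 CPM in knockout aorta, against 631.2, 629.2 and 472.0 CPM in control aorta. Here too knockout replicate 1 was the highest library and the groups overlapped. The log2 fold change was 0.14 (95% interval -0.34 to 0.62; adjusted p 0.726). The log2 ratio of the inducible pair to Hspa8 averaged -1.57 ± 0.19 in knockout and -1.52 ± 0.29 in control libraries (SD, n = 3 each), a difference of -0.04 with an exact permutation p of 0.9. The Dnaja1 to Hspa8 ratio differed by 0.51 on the log2 scale, again with overlapping ranges and an exact permutation p of 0.2. Much of the Hspa8 sequence (68.6% of its 75-base windows) recurs in transcripts of other genes, mostly predicted genes, so its level is uncertain.

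Hsph1, the HSP110 nucleotide exchange factor (ENSMUSG00000029657, chromosome 5, 149614287 to 149636376, minus strand), had the most negative fold change of the 10. Its level was 138.2, 117.8 and 116.6 CPM in knockout aorta, against 235.3, 223.2 and 93.2 CPM in control aorta. Control replicates 1 and 2 stood above all knockout libraries and replicate 3 stood below them. The log2 fold change was -0.56 ± 0.33 (SE; 95% interval -1.34 to 0.21) with an adjusted p of 0.357. Without control replicate 3 it was -0.88 with an adjusted p of 0.0403, so that 1 library decides whether the gene is called; that fit called 280 genes in all. The Hsph1 to Hspa8 log2 ratio averaged -2.33 ± 0.20 in knockout and -1.75 ± 0.51 in control libraries (SD, n = 3 each; exact permutation p = 0.3).

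Hsp90aa1, the inducible HSP90 (ENSMUSG00000021270, chromosome 12, 110690605 to 110702728, minus strand), had 415.0, 316.7 and 237.2 CPM in knockout aorta, against 509.0, 247.7 and 174.6 CPM in control aorta. Both the highest and the lowest library were controls. Hsp90ab1, the constitutive HSP90 (ENSMUSG00000023944, chromosome 17, 45567775 to 45573271, minus strand), had 1136.5, 1114.4 and 1023.2 CPM in knockout aorta, against 1338.6, 1089.7 and 898.4 CPM in control aorta. It followed the same order of libraries with a smaller spread. The log2 fold changes were 0.06 (95% interval -0.92 to 1.03; adjusted p 0.958) and -0.02 (-0.41 to 0.37; adjusted p 0.956). Among the fold change intervals of the 10 genes, that of Hsp90aa1 was the widest, and it does not exclude a near doubling or halving. The log2 ratio of Hsp90aa1 to Hsp90ab1 averaged -1.79 ± 0.33 in knockout and -1.97 ± 0.51 in control libraries (SD, n = 3 each; exact permutation p = 0.7).

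Hspb1, the small heat shock protein gene (ENSMUSG00000004951, chromosome 5, 135887919 to 135889563, plus strand), had 926.0, 820.6 and 703.9 CPM in knockout aorta, against 1091.4, 857.6 and 349.1 CPM in control aorta. Control replicate 3 was far below the other 5 libraries, and control replicate 1 was the highest. The log2 fold change was 0.09 (95% interval -0.81 to 0.99; adjusted p 0.914), and it was -0.25 without control replicate 3. Of its 75-base windows, 47.3% occur in transcripts of other genes, among them the pseudogene Hsp25-ps1, and for Hsp90aa1 the share was 53.1%, so the levels of both are uncertain.

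Hspd1, the mitochondrial chaperonin (ENSMUSG00000025980, chromosome 1, 55077835 to 55088243, minus strand), had 94.6, 102.1 and 89.6 CPM in knockout aorta, against 132.0, 116.1 and 88.9 CPM in control aorta. The lowest library was again control replicate 3 and the highest control replicate 1. Its log2 fold change was -0.23 (95% interval -0.61 to 0.14; adjusted p 0.43). Hspe1, its co-chaperonin HSP10, lies head to head with it and had 44.1, 49.6 and 46.4 CPM in knockout aorta, against 63.4, 28.9 and 42.4 CPM in control aorta (log2 fold change 0.03, adjusted p 0.962). The first exons of this pair overlap on opposite strands, and 33.7% of the 75-base windows of Hspd1 recur in transcripts of other genes, mostly Hspd1-ps3.

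**Figure D2:**
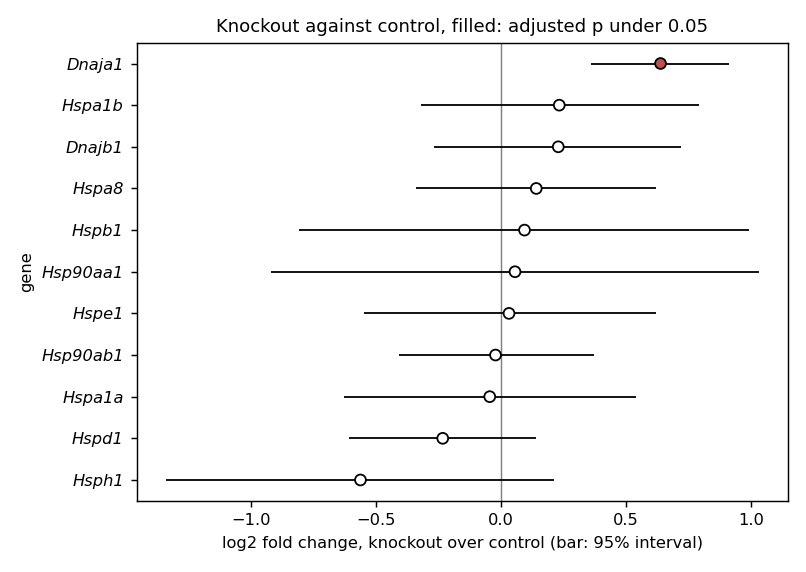
Log2 fold change of knockout over control with its 95% interval for the 10 chaperone genes and Hspe1, from edgeR's quasi-likelihood fit; a filled point marks an adjusted p under 0.05. The interval of Dnaja1 (0.36 to 0.91) lies above 0, while every other interval includes 0.

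Per length of merged exon, Hspb1 had the highest mean level in both groups and Dnaja1 the lowest. On this scale of unscaled CPM per kilobase, Hspb1 averaged 788 ± 102 in knockout and 740 ± 380 in control aorta (SD, n = 3 each). Hsp90ab1 followed with 362 ± 16.8 and 371 ± 87.8, then Hspa8 with 147 ± 35.8 and 134 ± 19.7. Among these 3 abundant genes the knockout ranges were apart, whereas the control ranges of Hspb1 and Hsp90ab1 overlapped. Within each control library, however, Hspb1 stood above Hsp90ab1 (1121 against 473, 738 against 322 and 360 against 319). Hsp90aa1 averaged 81.7 ± 22.1 in knockout and 80.1 ± 49.6 in control, Hspa1b 54.3 ± 19.8 and 46.5 ± 3.38, and Hspd1 35.9 ± 2.03 and 42.6 ± 9.09. Hsp90aa1 and Hspa1b overlapped in both groups, and Hspa8 with Hsp90aa1 and Hspa1b with Hspd1 in control. Library by library, Hspa8 stood above Hsp90aa1 in all controls and Hsp90aa1 above Hspa1b in all knockouts. The order of Hsp90aa1 and Hspa1b, and of Hspa1b and Hspd1, changed between control libraries. Hspa1a averaged 22.4 ± 8.49 in knockout and 23.3 ± 3.08 in control, Hsph1 17.0 ± 1.62 and 25.1 ± 10.5, and Dnajb1 13.7 ± 3.11 and 11.8 ± 1.5. Hspa1a and Hsph1 overlapped in both groups and Hsph1 and Dnajb1 in knockout. Within each knockout library Hspa1a stood above Hsph1 and Hsph1 above Dnajb1, while the order of Hspa1a and Hsph1 changed between control libraries. Dnaja1 averaged 8.57 ± 0.81 in knockout and 5.56 ± 0.69 in control, below Dnajb1 without overlap in either group. The FPKM deposited by the authors use longer gene lengths for many genes (9237 against 4301 merged bases for Hspa8). On that scale Hspa1b averaged 54.3 and Hsp90aa1 48.9 in knockout aorta, the opposite order. In control aorta Hsp90aa1 (47.9) stayed above Hspa1b (46.5), and their FPKM ranges overlapped in both groups.

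**Figure D3:**
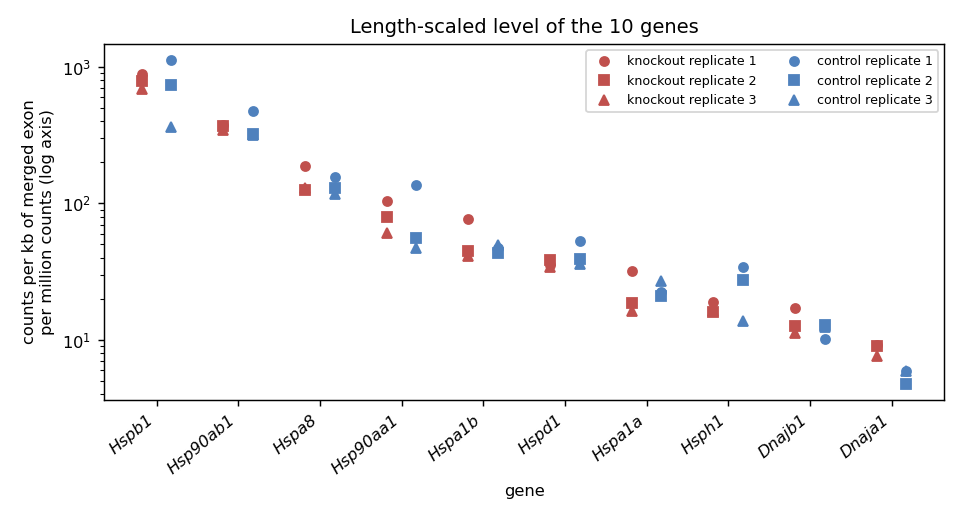
Unscaled CPM per kilobase of merged exon (log axis) for the 10 chaperone genes, ordered by knockout mean, with each knockout library in red on the left and each control library in blue on the right. Hspb1 and Hsp90ab1 lead and Dnaja1 is lowest in both groups; the spread of Hspb1 over control libraries (360 to 1121) exceeds that over knockout libraries (687 to 891).

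Together the 10 genes took 3945.0, 3273.1 and 3004.2 unscaled CPM in knockout libraries and 4450.9, 3072.3 and 2519.0 in control libraries. The spread within each group was wide beside the distance between the groups, and replicate 1 was the highest in both. Knockout replicate 1 was the highest knockout library for 9 of the 10 genes (34.3% of all genes tested), and control replicate 1 the highest control library for 7 of the 10 (30.4%). Libraries of the same number share only that number. Hemoglobin and other erythroid transcripts (5 genes, none at 0) were also high in these libraries and in control replicate 3, with 974.9, 188.8 and 224.4 unscaled CPM in knockout and 1027, 287 and 738.1 in control libraries. Their part in the chaperone values was not tested.

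**Figure D4:**
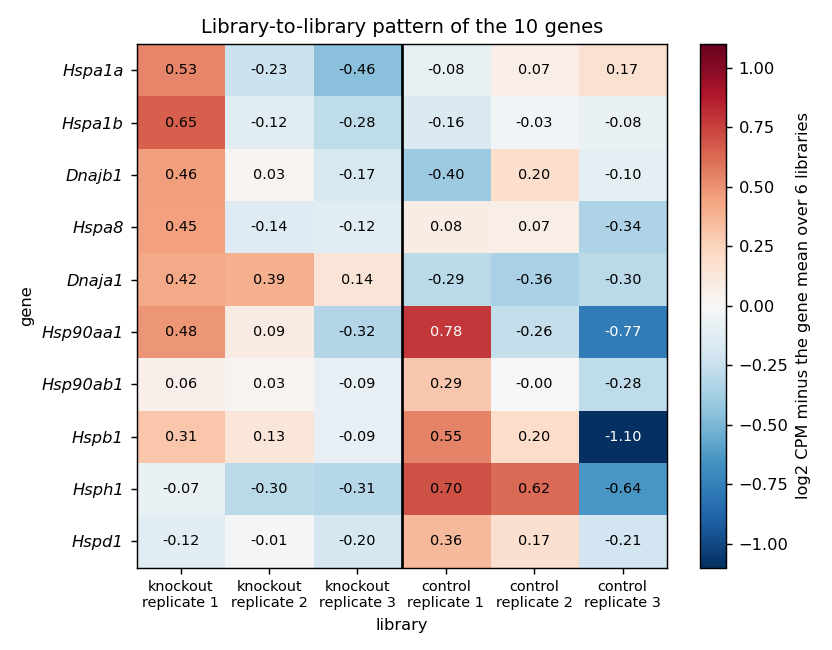
Log2 CPM of each chaperone gene (rows) minus its mean over the 6 libraries (columns; knockout left of the line, control right), with each value printed. Hspa1a is highest in knockout replicate 1 (0.53), whereas Hsp90aa1 is highest in control replicate 1 (0.78) and Hspb1 is lowest in control replicate 3 (-1.10).

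The genes varied within groups in 2 patterns, recognised after the values were seen. After removal of each group's mean from log2 CPM, Hspa1a and Hspa1b had a Pearson r of 0.98 over the 6 libraries, and each had 0.81 with Dnajb1. Hsp90aa1, Hsp90ab1, Hspb1, Hsph1 and Hspd1 formed the second pattern, with r between 0.76 (Hsp90aa1 and Hsph1) and 0.98 (Hspb1 and Hsph1). Between Hspa1a, Hspa1b and Dnajb1 on one side and those 5 genes on the other, r lay between -0.18 and 0.33. Hspa8 went partly with both, at 0.78 with Hspa1b and 0.72 with Hsph1. Dnaja1 had its highest r with Hspa1a (0.67) and its lowest with Hsph1 (0.03). The 5 genes of the second pattern spread more over control than over knockout libraries. Around its mean over the 6 libraries, Hspb1 ran from -1.10 (replicate 3) to 0.55 (replicate 1) in control, against -0.09 to 0.31 in knockout. Hspa1a ran from -0.46 to 0.53 in knockout, highest in replicate 1, against -0.08 to 0.17 in control. Each pattern may thus lean on few libraries. All these values rest on the same 6 libraries, and 2 group means were removed, so they are given as a description. The part of the shared sequence of Hspa1a and Hspa1b in their likeness was not tested.

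**Figure D5:**
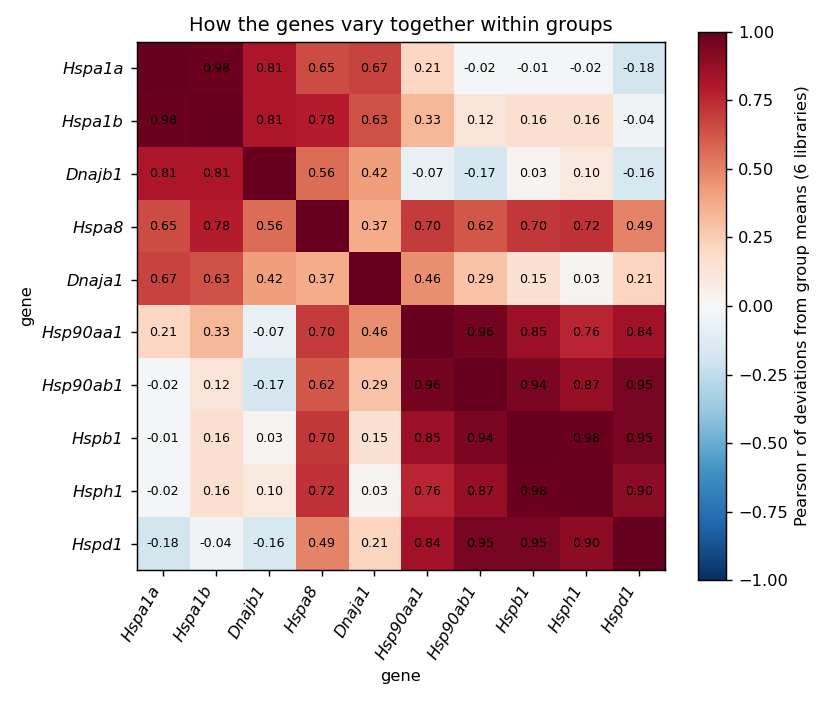
Pearson r between each pair of the 10 chaperone genes, from log2 CPM deviations from the group means over 6 libraries; red is positive and blue negative. Hspa1a, Hspa1b and Dnajb1 vary together (0.81 to 0.98), and so do Hsp90aa1, Hsp90ab1, Hspb1, Hsph1 and Hspd1 (0.76 to 0.98).

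The 9 lists of other chaperones, cochaperones and their regulators held 104 tested genes, of which 2 rose and 2 fell, or 3.85% against 3.45% of all genes tested. Their median log2 fold change was 0.08, and 23 of the 104 (22.1%) had an unadjusted p under 0.05, against 22.7% of all genes tested. Among 4 tested heat shock factors and their regulators 0 were called by edgeR, DESeq2 or limma voom, and 0 had an unadjusted p under 0.05. Hsf1, the main stress factor, had a log2 fold change of -0.30 (adjusted p 0.336), Hsf2 0.19 (0.452) and the HSF1 inhibitor Hsbp1 -0.14 (0.566). Of 8 other HSP70 and HSP110 genes 1 fell: Hspa1l, the gene next to Hspa1a that is known mainly from testis, had 9.02, 7.88 and 8.45 CPM in knockout aorta, against 14.2, 15.6 and 14.8 CPM in control aorta (log2 fold change -0.81, adjusted p 0.0381). Its ranges were apart, while those of Hspa1a and Hspa1b were not. Hspa2 (-0.19) and Hspa12b (0.43) were not called.

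Of 17 other J-domain genes 1 fell, Dnajb2, which is known for delivering ubiquitinated clients to the proteasome. It had 54.0, 47.9 and 48.8 CPM in knockout aorta, against 88.7, 68.2 and 78.1 CPM in control aorta (log2 fold change -0.65, adjusted p 0.0459). Dnaja1 and Dnajb2 differed in opposite directions. Of all genes tested, edgeR called 1.9% higher and 1.56% lower. An unadjusted p under 0.05 was found for 6 of the 17 and for 22.7% of all genes tested. The ribosome-associated Dnajc2 had 0.56 (adjusted p 0.0705) and Dnajc27 -0.68 (0.0791). Of 10 regulators of HSP70 1 rose: Bag1, a nucleotide exchange factor, had 189.7, 174.2 and 159.8 CPM in knockout aorta, against 105.4, 77.1 and 107.9 CPM in control aorta (log2 fold change 0.84, adjusted p 0.0402). St13 (0.38) and Bag6 (0.25) were not called, and 2 of the 10 had an unadjusted p under 0.05, against the same 22.7%.

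Among 17 HSP90 cochaperones edgeR called 0, and 3 had an unadjusted p under 0.05, against 22.7% of all genes tested. DESeq2 and limma voom each called 1, higher in knockout, where they called 5.22% and 2.4% of the genes they tested higher. The kinase cochaperone Cdc37 had 295.1, 261.3 and 255.1 CPM in knockout aorta, against 191.5, 147.9 and 186.2 CPM in control aorta, with ranges apart but an adjusted p of 0.0579. Ptges3, the p23 cochaperone, had a log2 fold change of 0.36 (0.158) and Ahsa2 -0.51 (0.182). Among 6 other small heat shock genes edgeR and limma voom called 0. DESeq2 called 2 higher, as it did 5.22% of all genes it tested. Of the 6, 4 had an unadjusted p under 0.05 in edgeR, a level reached by 22.7% of all genes tested. Hspb2 (log2 fold change 0.67, adjusted p 0.0921) and Cryab, the alpha-B crystallin gene (0.62, 0.113), had positive values, and Hspb6 a negative one (-0.91, 0.19), none past the threshold. Of 14 subunits of the cytosolic chaperonin CCT and of prefoldin, which passes actin and tubulin to it, 1 rose. It was Pfdn2, with 93.2, 85.9 and 85.4 CPM in knockout aorta, against 42.1, 23.7 and 45.9 CPM in control aorta (log2 fold change 1.21, adjusted p 0.0378). Cct8 (0.28) and Pfdn5 (0.37) were not called. Of the 14, 1 had an unadjusted p under 0.05 in edgeR, against 22.7% of all genes tested. The share of all genes tested that edgeR called higher was 1.9%.

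Among 13 mitochondrial chaperones and proteases edgeR and limma voom called 0, and DESeq2 called 1 in each direction. Of all genes it tested, DESeq2 called 5.22% higher and 5.11% lower. Of the 13, 4 had an unadjusted p under 0.05, against 22.7% of all genes tested. Grpel2, a nucleotide exchange factor of mitochondrial HSP70, had a log2 fold change of 0.56 (adjusted p 0.0602), Dnajc19 -0.57 (0.0854) and Hspa9, mitochondrial HSP70 itself, -0.37 (0.139). Among 15 chaperones of the endoplasmic reticulum edgeR called 0, and DESeq2 and limma voom each called 1 lower. DESeq2 called 5.11% and limma voom 2.33% of all genes they tested lower. Of the 15, 2 had an unadjusted p under 0.05, against the same 22.7%. The HSP70 of that compartment, Hspa5, had 214.6, 194.1 and 168.1 CPM in knockout aorta, against 392.6, 262.5 and 370.4 CPM in control aorta (log2 fold change -0.83, adjusted p 0.0532). Hyou1 had -0.58 (0.113) and Manf -0.34 (0.318).

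Immediate early genes encode factors that cells switch on within minutes of stimulation. Of 23 tested, 6 fell and 0 rose, where 1.56% of all genes tested fell and 1.9% rose (edgeR; 0 rose also by DESeq2 and limma voom, and 0 had a positive fold change at an unadjusted p under 0.05), and their median log2 fold change was -0.52. Egr1 was the lowest in p, with 49.7, 60.2 and 40.1 CPM in knockout and 195.8, 193.9 and 168.0 CPM in control libraries (log2 fold change -1.89, adjusted p 0.00868); Fosb, Junb, Nr4a1, Nr4a2 and Btg2 were the other 5. The whole list summed to 1432 to 1714 unscaled CPM in knockout and 2018 to 2720 in control libraries, without overlap. Its part in the Dnaja1 result was not tested.

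Genes whose log2 CPM over the 6 libraries was most like that of Dnaja1, among 9439 compared, were Zswim8, Ufc1, Pld2, Srek1 and Sdc4, with Pearson r of 0.993 to 0.995. Of these, Zswim8 (log2 fold change 0.52, adjusted p 0.0495) and Pld2 (0.56, 0.0439) were called higher by edgeR, as were 1.9% of all genes tested. Since Dnaja1 separated the groups, genes picked for likeness to it were bound to differ in the same direction. For the mean of Hspa1a and Hspa1b the most alike were Lemd2, Hps6, Rnf40, Sorbs2 and Irak1, with r of 0.953 to 0.971 and no call. With so few libraries, high correlations arise readily among this many genes, and these are a description.

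Summed markers of other cell types were compared by library, in unscaled CPM. Endothelial markers (7 genes) took 1458, 1471 and 644.6 in knockout and 753.8, 788.5 and 922.4 in control libraries. Fibroblast markers (6 genes) took 2993 to 3109 in knockout and 2892 to 4484 in control, macrophage markers (6) 334 to 409 and 140 to 544, adipocyte markers (6) 518 to 729 and 542 to 864, striated muscle markers (8) 96.8 to 107 and 68.8 to 112, and Schwann cell markers (4) 15.03 to 31.2 and 14.5 to 22.1. Lymphocyte markers (6) stayed near the detection limit at 1.1 to 2.2 in knockout and 1.65 to 2.84 in control. All these sums overlapped between the groups, and no marker was at 0 in all libraries. Single markers that passed the edgeR test are named here after their values were seen. Of the striated muscle markers 2 rose, Ckm (log2 fold change 3.97, adjusted p 0.00152) and Actc1 (2.21, 0.0321), and Casq1 of the same list fell (-2.04, 0.0184). The brown fat marker Ucp1 (-2.45, 0.0023) and the smooth muscle marker Tagln (-1.14, 0.0331) also fell. Their part in the chaperone values was not tested.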

How the data were processed

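RNA-seq of whole mouse aorta gave 6 libraries, grouped by genotype label into knockout and control (3 each). The counts the authors deposited are whole reads per gene, unnormalised. The FPKM the authors deposited equal the count over gene length and library total; for 97.4% of 13565 genes (at least 50 counts, relative tolerance 0.001) that length was the sum of all distinct exon records, overlapping ones included. Per the submitters' processing notes, CASAVA 1.8, HISAT2, SAMtools 1.3.1 and edgeR were used. Not given in the sources used here are the counting program, its annotation and its strand setting. The notes name GRCm39, but positions matched the GENCODE M21 annotation of GRCm38 for 99.4% of shared identifiers, so GRCm38 coordinates are given. Total counts per library ranged from 3038782 to 18218385; fold changes from the shallowest library are the least precise.

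Counts were filtered with filterByExpr, scaled by TMM and compared with edgeR 4.0.16 (glmQLFit, robust, glmQLFTest; R 4.3.3), p-values being adjusted by Benjamini-Hochberg across the 16139 genes that passed the filter and called under 0.05; the procedure was tested on simulated data. Log2 CPM used a prior count of 2. Ratios of partner genes within a library were compared by exact two-sided permutation tests; the 6 ratios had Benjamini-Hochberg adjusted p of 0.6 to 0.9. Alternatives were DESeq2 1.42.0, limma 3.58.1 with and without quality weights, other scalings, no filter, a replicate block and leaving out each library. Replicates of a group differed beyond sampling noise. Named genes were the 10 members, Ogt, Hspe1, in each list other than markers up to 3 genes with the smallest p and any called gene (of immediate early genes only Egr1 is given with values), and the 5 genes most correlated with Dnaja1 or with Hspa1a and Hspa1b. Members and lists were chosen with earlier results of these data known.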

Additional observations from a re-analysis of the deposited data

How the results depend on the processing

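The number of genes called, 557, became 1501 with DESeq2, 1784 with limma voom and quality weights, and 7 to 911 when each library was left out. Of the 10 chaperone genes 1, Dnaja1, was called with DESeq2, with limma voom with and without quality weights, under both other scalings and without the filter. With each library left out 0 to 1 were called by edgeR. That gene was Dnaja1 without control replicate 2 (adjusted p 0.037) and Hsph1 without control replicate 3 (adjusted p 0.0403). Calls in the 9 chaperone lists and the immediate early list numbered 10, and 22 with DESeq2, 21 with quality weights and 0 to 16 with each library left out. The log2 fold change of Hspa1a turned to 0.001 without the filter and to 0.14 when summed with Hspa1b, and that of Hsp90ab1 to 0.027 without the filter. With each library left out the log2 fold change ran from -0.39 to 0.15 for Hspa1a, -0.10 to 0.41 for Hspa1b, -0.07 to 0.25 for Hspa8, -0.23 to 0.61 for Hsp90aa1, -0.15 to 0.13 for Hsp90ab1, -0.25 to 0.44 for Hspb1, 0.04 to 0.38 for Dnajb1, -0.88 to -0.34 for Hsph1 and -0.38 to -0.10 for Hspd1, and the log2 ratio difference from -0.16 to 0.12 for inducible over constitutive HSP70 and -0.026 to 0.458 for HSP90; the cause was not tested. Same-numbered libraries had correlations of 0.052, 0.086 and -0.06 between their deviations from the group means, and not every library correlated best with its own number. With a replicate block 28 genes were called, 0 of the 10 and 2 in the lists (Dnaja1 0.63, adjusted p 0.12).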

Other observations

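Within the near-identical HSP70 pair, Hspa1b took 69.4%, 69.3% and 70.3% of the summed Hspa1a and Hspa1b counts in knockout libraries, against 66.4%, 66.1% and 63.7% in control libraries. The knockout share was higher by 4.24 percentage points without overlap (exact two-sided permutation p = 0.1, the smallest that 3 libraries against 3 allow). This comparison was chosen after the values were seen. Separate ranges of level, a different measure, were found for 31.8% of all genes tested, and no such figure was computed for shares within a pair. With each library left out the difference was 3.39 to 4.77 points. Dnaja1 and Bag1, a J-domain cochaperone and an HSP70 nucleotide exchange factor that both rose, lie near each other on chromosome 4, at 40722150 to 40737149 and 40936398 to 40948294. Both edgeR calls were close to the threshold (adjusted p 0.0398 and 0.0402), and the pair was picked after the values were seen. The 4 other tested genes from one to the other were not called, with log2 fold changes of -0.04 for Smu1, 0.24 for Psenen-ps, -0.03 for B4galt1 and -0.88 for Gm12397.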
